A study of Homo sapiens with 10 samples.

Results

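The genes described here are 10 inflammatory outputs of lung epithelial cells, followed across A549 lines that differ in ABCA3. They were chosen by name, and all 10 were found among the 33551 rows of the count table. They comprise the CXC chemokines CXCL1, CXCL2, CXCL3, CXCL5 and CXCL8, the CC chemokines CCL2 and CCL20, and the cytokines IL6, IL11 and LIF. A549 is an established human lung adenocarcinoma line used as a model of alveolar epithelium. The 5 lines sequenced were labelled WT, labelled KO for a knockout of ABCA3, or edited to hold one ABCA3 substitution, which names the line: L101P, E292V or E690K. From every line came 1 untreated library and 1 made after an overnight exposure to VSVG LV-ABCA3:GFP, a lentivirus for an ABCA3 and GFP fusion (multiplicity of infection 20). ABCA3 is a lipid transporter of the surfactant-storing organelles of alveolar type 2 cells. Every genotype was represented by a single line, without independent clones, and no line and treatment had a second library.

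Total counts ran from 59430095 to 96811421 per library, in L101P untreated and L101P transduced. The labels of the KO pair went against the targeted gene: ABCA3 was at 601 CPM (the count scaled to a common library total) in the library labelled KO untreated and at 25.8 CPM in the library labelled KO transduced, and EGFP fell from 2842 to 4 counts across that pair. The other 4 untreated libraries held EGFP too, at 60 counts for L101P and up to 5924 for WT. EGFP was higher in the transduced library of those 4 lines, from 70.9 to 153 CPM in WT, 1.01 to 35.9 in L101P, 20.7 to 66.8 in E292V and only 16.3 to 18.0 in E690K. The untreated WT library was thus above the transduced libraries of L101P, E292V and E690K. Directions with the vector in the KO pair rest on these labels. The 6 markers of simple epithelium, among them KRT8 and KRT18, were each above 1 CPM in every library, with a summed level of 8030 to 14800 CPM. Of the 8 alveolar type 2 markers, the 7 other than ABCA3 stayed below 1 CPM in all 10 libraries, among them SFTPC at 0 to 0.337 CPM, so markers of alveolar type 2 cells were close to absent.

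CXCL1, CXCL2, CXCL3, CXCL5 and CXCL8 are small secreted proteins that draw neutrophils through the receptor CXCR2, and CXCL8 also through CXCR1. CCL2 draws monocytes through CCR2, and CCL20 draws lymphocytes and dendritic cells through CCR6. IL6, IL11 and LIF each bind a receptor of their own and then signal through a shared chain, gp130, the product of IL6ST. In epithelial cells many of these genes are switched on by NF-kB and AP-1 after infection or injury, and their messenger RNAs are short-lived because of AU-rich elements.

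The 5 CXC genes lie within 359 kb of chromosome 4 (GRCh38, GENCODE release 29): CXCL8 at 73740506 to 73743716 and CXCL1 at 73869393 to 73871242 on the plus strand, then CXCL5 at 73995642 to 73998779, CXCL3 at 74036589 to 74038807 and CXCL2 at 74097035 to 74099293 on the minus strand. CCL20 lies on chromosome 2 (227805739 to 227817564), IL6 on chromosome 7 (22725884 to 22732002), CCL2 on chromosome 17 (34255218 to 34257203), IL11 on chromosome 19 (55364389 to 55370463) and LIF on chromosome 22 (30240447 to 30246851). Promoter windows from 250 bases before to 50 bases after the RefSeq start were found for 8 of the 10 genes, and CCL2 and LIF had no entry. The windows of the 5 neighbouring CXC genes are shown because these genes share a motif and CXCL8 also holds others, and that of IL11 because it holds the AP-1-like match of CXCL8. Each line gives the 150 bases before the start in GRCh38.p14, 5′ to 3′ on the strand of the gene. Capitals mark matches to a kappaB-like motif (GGANTTTCC, either strand), an AP-1-like motif (TGANTCA, which reads the same on both strands) and TATAAA on the strand of the gene. No matches overlap.
CXCL8, chr4:73740419-73740568, plus strand: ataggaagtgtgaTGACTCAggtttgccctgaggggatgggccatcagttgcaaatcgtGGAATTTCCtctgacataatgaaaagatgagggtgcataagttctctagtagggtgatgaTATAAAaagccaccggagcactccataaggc
CXCL1, chr4:73869243-73869392, plus strand: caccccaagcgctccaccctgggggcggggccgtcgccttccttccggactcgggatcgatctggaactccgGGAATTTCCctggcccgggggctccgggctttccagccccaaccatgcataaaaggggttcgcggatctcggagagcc
CXCL2, chr4:74099196-74099345, minus strand: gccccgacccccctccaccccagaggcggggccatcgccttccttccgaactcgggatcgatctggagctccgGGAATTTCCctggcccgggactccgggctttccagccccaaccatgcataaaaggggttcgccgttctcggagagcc
CXCL3, chr4:74038690-74038839, minus strand: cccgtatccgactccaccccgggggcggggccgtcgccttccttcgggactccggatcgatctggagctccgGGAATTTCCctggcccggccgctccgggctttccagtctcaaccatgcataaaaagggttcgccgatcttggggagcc
CXCL5, chr4:73998678-73998827, minus strand: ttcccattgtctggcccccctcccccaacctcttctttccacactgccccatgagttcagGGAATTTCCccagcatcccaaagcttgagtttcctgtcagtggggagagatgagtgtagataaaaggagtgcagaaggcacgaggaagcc
IL11, chr19:55370464-55370613, minus strand: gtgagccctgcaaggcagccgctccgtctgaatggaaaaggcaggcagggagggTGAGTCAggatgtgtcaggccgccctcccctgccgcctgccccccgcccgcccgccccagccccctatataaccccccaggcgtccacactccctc

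A kappaB-like match was found in 6 of the 8 windows, against 1.64% of 35116 RefSeq windows of the same length. It read GGAATTTCC in the 5 CXC genes and GGATTTTCC in IL6, and its first base lay between positions -91 and -72 from the start. An AP-1-like match stood in the windows of CXCL8 and IL11 (7.71% of all windows) and TATAAA in those of CXCL8 and CCL20 (7.33%). Of the 5 CXC windows, that of CXCL8 alone held all 3 kinds of match. These are matches of letters and were not tested as binding sites. Other forms of the motifs were not searched, so a window without a match may still hold such a site.

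**Figure D1:**
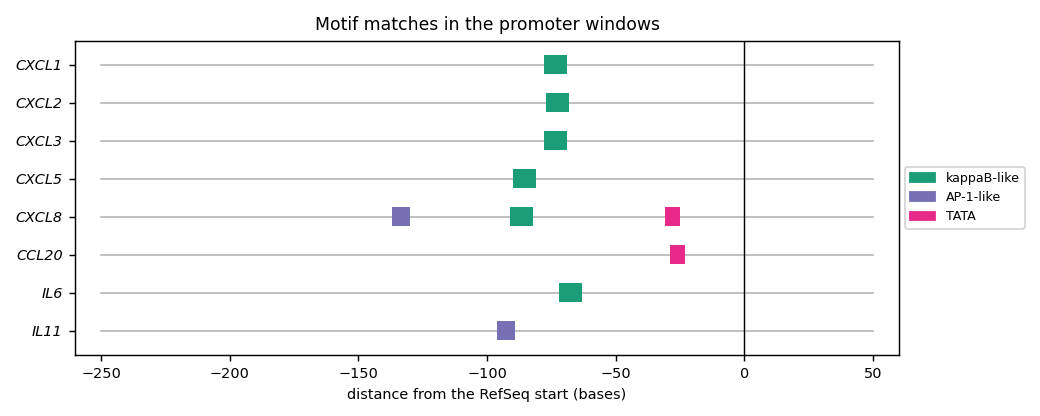
Positions of motif matches (coloured boxes) in the promoter windows of 8 genes; the x axis is the distance in bases from the RefSeq start, and grey lines span the window. The kappaB-like boxes of the CXC genes and IL6 sit at similar distances, while CXCL8 also has the AP-1-like box that IL11 has.

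Per kilobase of annotated exon, LIF was the most abundant of the 10 genes, with a median over the 10 libraries of 29.8 CPM per kb. CXCL5 (9.75) and IL11 (6.22) followed, then CCL2 (2.67). CXCL2, CXCL1, CXCL8 and CXCL3 had medians from 0.674 to 0.976 CPM per kb, and IL6 (0.0687) and CCL20 (0.0159) were near the limit of detection. The spread over libraries also differed between genes. LIF varied 1.19-fold between its lowest and highest library, CXCL5 2.02-fold, CXCL1, CXCL2 and CXCL3 between 3.43-fold and 4.07-fold, CCL2 4.62-fold, IL11 5.26-fold and CXCL8 7.40-fold. All 10 genes passed the filter on low counts.

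**Figure D2:**
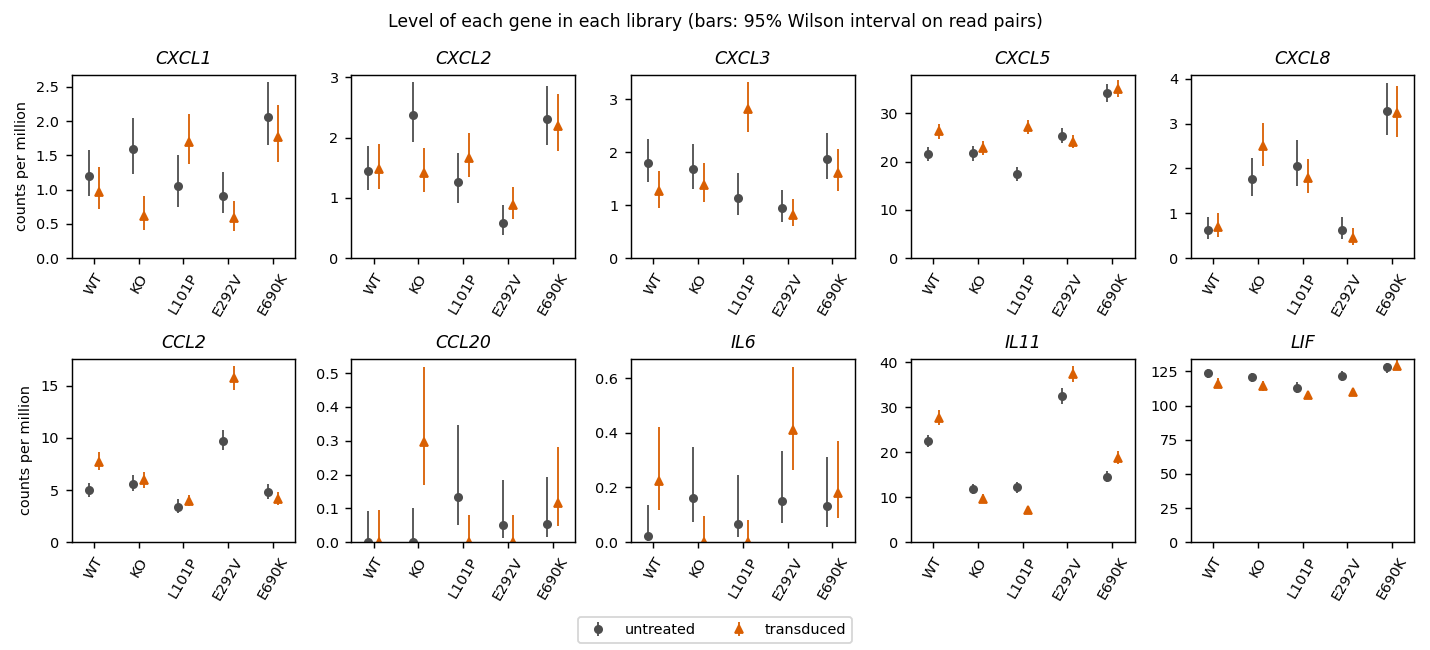
Level of each gene in the 10 libraries; the y axis is CPM from 0, the x axis the 5 lines, circles untreated and triangles transduced libraries, bars the 95% Wilson interval of counting error. CXCL8 is high in both libraries of KO, L101P and E690K, CCL2 and IL11 are highest in E292V, and LIF is nearly level.

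Whether a gene differed among the 5 lines was asked first, by 1 edgeR quasi-likelihood F test per gene. It passed for 5 of the 10 genes, against 13.0% of the 17978 genes tested: CXCL8, IL11, CCL2, CXCL5 and CXCL2 (adjusted p 4.42e-04, 4.64e-04, 8.85e-04, 0.0248 and 0.0456). For CXCL1, CXCL3, LIF, CCL20 and IL6 the adjusted p ran from 0.190 to 0.726. Without the E292V pair 3 genes passed (5.30% of all genes), CXCL2 and CCL2 being lost (edgeR adjusted p 0.483 and 0.150). Without the E690K pair 3 passed (7.39% of all genes), CXCL2 and CXCL5 being lost (0.166 and 0.923). CXCL2 was also lost on library totals alone (0.0512), and CXCL5 with the KO labels exchanged (0.0545). In the contrasts with WT, CXCL8 rose and IL11 fell in KO (2 of 10 genes, against 1.80% of all genes) and in L101P (2 of 10, against 3.94%). CCL2 rose in E292V (1 of 10, against 1.05%), and CXCL8 and CXCL5 rose in E690K (2 of 10, against 5.38%). The median log2 fold change of the 10 genes for KO, L101P, E292V and E690K was 0.00, -0.01, 0.00 and 0.49, beside -0.01, -0.01, 0.00 and -0.02 over all genes tested. These 4 contrasts share the WT libraries. Between edited lines, 4 of 10 genes passed for KO against E292V (10.7% of all genes), 3 for L101P against E292V (13.8%), 5 for E292V against E690K (10.4%), 1 for KO against E690K (1.64%), and 0 for KO against L101P (0.139%) and L101P against E690K (0.690%). CXCL5 and IL11 passed for L101P against E690K under the DESeq2 test (adjusted p 0.00244 and 0.00742, 2.20% of all genes) and without the filter (1.32e-04 and 8.09e-05 in edgeR, 2.54%). IL11 passed for KO against E690K under the DESeq2 test (0.0384), without the filter (0.00186) and without the L101P pair (0.00556). In bulk RNA, more cells making a transcript and more transcript per cell cannot be told apart.

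CXCL8, the neutrophil chemokine also known as interleukin 8, gave 52 counts in WT untreated and 56 in WT transduced (0.622 and 0.689 CPM) and 49 and 42 in E292V (0.621 and 0.443 CPM). It had 132 and 202 counts in the libraries labelled KO (1.76 and 2.49 CPM), 122 and 173 in L101P (2.05 and 1.79 CPM), and 248 and 252 in E690K (3.28 and 3.23 CPM). All 6 libraries of KO, L101P and E690K lay above all 4 of WT and E292V, with the vector or without it, and the E690K pair was highest. Against WT, CXCL8 was 5.12-fold higher in E690K (log2 fold change 2.36, SE 0.31, edgeR adjusted p 0.00103). KO was 3.30-fold above WT (1.72, SE 0.31, edgeR adjusted p 0.0158). L101P was 3.00-fold above WT (1.58, SE 0.31, edgeR adjusted p 0.0154). Without the E690K pair the KO and L101P calls were lost at nearly unchanged folds (log2 1.73 and 1.59, edgeR adjusted p 0.0654 and 0.0523). In the order of mean levels, the test did not tell E690K from KO or KO from L101P (edgeR adjusted p 0.381 and 0.996), L101P lay above WT, and WT was not told from E292V (edgeR adjusted p 0.841). With E292V as the reference, CXCL8 was higher in KO and L101P (log2 fold changes 2.04 and 1.90, edgeR adjusted p 0.00151 and 0.00179), and E292V against E690K gave -2.67 (2.24e-04).

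CXCL1, CXCL2 and CXCL3 are close relatives, and the test against WT passed for none of them in any line (edgeR adjusted p 0.283 to 0.998). In the order untreated and transduced, CXCL1 had 100 and 79 counts in WT, 119 and 50 in KO, 63 and 165 in L101P, 72 and 55 in E292V, and 156 and 138 in E690K. CXCL2 had 121 and 120 counts in WT, 178 and 115 in KO, 75 and 161 in L101P, 46 and 83 in E292V, and 175 and 172 in E690K. CXCL3 had 150 and 102 counts in WT, 126 and 112 in KO, 68 and 273 in L101P, 74 and 78 in E292V, and 142 and 126 in E690K. E292V had the lowest mean of the 5 lines for each of these genes. CXCL2 was lower in E292V than in E690K (log2 fold change -1.68, SE 0.35, edgeR adjusted p 0.00849) and than in KO, where the difference of KO from E292V was 1.41 (SE 0.35, edgeR adjusted p 0.0234). That KO call was lost without the E690K pair (edgeR adjusted p 0.0531). For CXCL1 and CXCL3 no pair of neighbouring lines in that order passed (edgeR adjusted p 0.493 to 0.998). CXCL1 in E292V against E690K was at -1.44 (SE 0.43, edgeR adjusted p 0.0536) and passed under 6 other settings, among them the DESeq2 test (0.0198) and the fit without the L101P pair (0.0102). CXCL3 in L101P against E292V was at 1.24 (SE 0.41, edgeR adjusted p 0.0680) and passed under the DESeq2 test (0.0360) and without the filter (0.00987). CXCL3 in E292V against E690K (-1.04, edgeR adjusted p 0.140) passed without the filter (0.0422) and without the L101P pair (0.0282), and CXCL2 in L101P against E292V (1.05, 0.0681) without the filter (0.0293). Of all 50-base words in the annotated CXCL2 transcripts, 12.5% also occurred in transcripts of other genes (60 words in CXCL1 and 139 in CXCL3), beside 4.81% for CXCL1 and 6.01% for CXCL3. How such shared reads were counted is not given in the sources used here, so the split of counts among these genes is uncertain.

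CXCL5, the most abundant chemokine among the 10 genes, gave 1801 counts in WT untreated and 2135 in WT transduced (21.6 and 26.3 CPM). The other pairs were at 21.7 and 22.8 CPM in KO, 17.4 and 27.1 in L101P, 25.4 and 24.1 in E292V, and 34.2 and 35.1 in E690K. Both E690K libraries lay above the 8 others. CXCL5 was 1.51-fold higher in E690K than in WT (log2 fold change 0.59, SE 0.15, edgeR adjusted p 0.0363), a call that was lost without the KO pair (edgeR adjusted p 0.0598) and with the KO labels exchanged (0.0715). It was also higher in E690K than in E292V, the next line in the order (edgeR adjusted p 0.0355), where it was lost without the KO pair (0.0575), with the KO labels exchanged (0.0622) and on library totals alone (0.0501). Below it, E292V, WT, KO and L101P were not told from their neighbours (edgeR adjusted p 0.887 to 1.00). KO against E690K gave -0.66 (edgeR adjusted p 0.0442), a call lost without the WT pair (0.0628) and with the KO labels exchanged (0.106). Unlike CXCL8, CXCL5 showed no call in KO or L101P against WT (log2 fold change -0.07 in both, SE 0.15, edgeR adjusted p 0.887 and 0.865); the difference between the 2 genes was not tested.

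CCL2, the monocyte chemokine, gave 416 counts in WT untreated and 626 in WT transduced (4.98 and 7.70 CPM). It was at 5.63 and 5.93 CPM in KO, 3.40 and 3.97 in L101P, 9.74 and 15.7 in E292V, and 4.79 and 4.15 in E690K. Both E292V libraries lay above the 8 others. CCL2 was 1.99-fold higher in E292V than in WT (log2 fold change 0.99, SE 0.21, edgeR adjusted p 0.0394), by 0.96 in the untreated and 1.02 in the transduced pair. The call was lost without the KO pair (edgeR adjusted p 0.0766), without the E690K pair (0.0577) and with the KO labels exchanged (0.0822). CCL2 was also higher in E292V than in the other edited lines: the log2 fold change was -1.07 for KO against E292V, -1.72 for L101P against E292V and 1.41 for E292V against E690K (edgeR adjusted p 0.00551, 2.64e-04 and 9.98e-04). WT, KO, E690K and L101P, in that order, were not told from their neighbours (edgeR adjusted p 0.546 to 0.913). L101P against WT was at -0.73 (SE 0.21, edgeR adjusted p 0.0802), which passed under the DESeq2 test (0.0300) and without the filter (0.00789).

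IL11, a cytokine of the IL6 family linked to fibroblast activation, gave 1876 counts in WT untreated and 2252 in WT transduced (22.5 and 27.7 CPM). It was at 11.9 and 9.68 CPM in KO, 12.2 and 7.11 in L101P, 32.5 and 37.4 in E292V, and 14.5 and 18.8 in E690K. The E292V pair was highest, the WT pair next, the E690K pair below it, and the KO and L101P pairs lowest, with no overlap between those 4 steps. KO was 2.29-fold below WT for IL11 (log2 fold change -1.19, SE 0.21, edgeR adjusted p 0.0161). L101P was 2.56-fold below WT (-1.36, SE 0.22, edgeR adjusted p 0.00622). In E690K the log2 fold change was -0.54 (SE 0.21, edgeR adjusted p 0.173) and in E292V it was 0.47 (SE 0.21, 0.455). Both passed without the L101P pair (edgeR adjusted p 0.00881 and 0.0350) and without the filter on low counts (0.00767 and 0.0481). Neighbours in the order of the lines were not told apart by the test (edgeR adjusted p 0.173 to 0.996), whereas E292V lay above KO, L101P and E690K (edgeR adjusted p 5.45e-04, 2.23e-04 and 0.00835).

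CCL2 and IL11 were highest in E292V, and so was COL1A1, a collagen chain on the list of 7 fibroblast markers. The summed level of that list was 78.2 and 121 CPM in the untreated and transduced E292V libraries and 16.1 to 47.8 CPM in the 8 others. Most of it was COL1A1, at 13.8 to 118 CPM. COL1A2 stayed at or below 0.279 CPM, DCN at or below 0.186 CPM and PDGFRB at or below 0.411 CPM in the 10 libraries, and COL1A2 was at 0 in the 8 libraries outside E292V. COL3A1 reached at most 0.380 CPM and PDGFRA 0.601 CPM. LUM, at 1.58 to 3.94 CPM, was at 2.64 and 2.07 CPM in E292V, below both KO and both E690K libraries. The part of fibroblast markers in the CCL2 and IL11 results was not tested. The 8 leukocyte markers summed to 25.6 to 51.5 CPM, mainly CD68, with PTPRC, the common leukocyte antigen, at 0 to 0.132 CPM and CD3E and MS4A1 at 0. The 5 endothelial markers summed to 0.105 to 1.13 CPM.

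**Figure D3:**
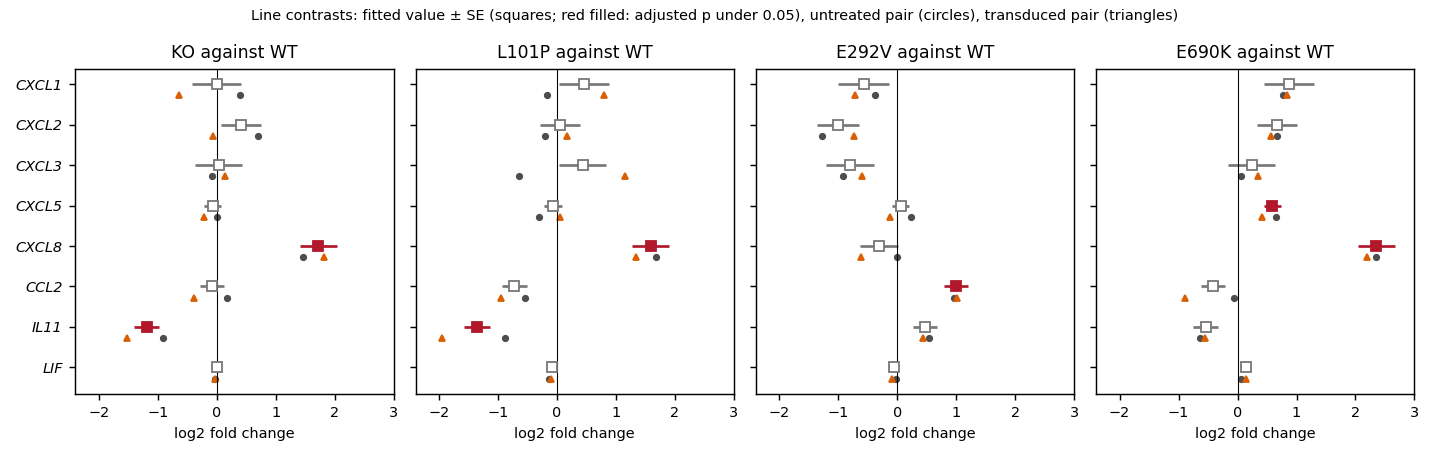
Log2 fold change of each line against WT for 8 genes; squares with bars are the fitted value ± SE, filled red where the edgeR adjusted p is under 0.05, with the untreated pair (circles) and the transduced pair (triangles) below. CXCL8 stands to the right in KO, L101P and E690K, IL11 to the left in KO and L101P, and CCL2 to the right in E292V. CCL20 and IL6 are left out because of their low counts.

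LIF, a gp130 cytokine named for its effect on leukaemia cells, was at 108 to 129 CPM in the 10 libraries. WT had 124 and 116 CPM, and E690K, the highest pair, 128 and 129 CPM. No contrast of LIF with WT passed: the log2 fold changes from WT for KO, L101P, E292V and E690K were 0.00, -0.08, -0.06 and 0.15 (SE 0.07 each, edgeR adjusted p 0.276 to 0.997). E292V against E690K was at -0.21 (SE 0.07, edgeR adjusted p 0.0851) and passed under the DESeq2 test (0.0495) and without the L101P pair (0.0315). The annotated genes LIF-AS1 and AC004264.1 overlap LIF on the opposite strand, and STEAP1B and AC073072.1 overlap IL6 in the same way. Whether counting used strand is not given in the sources used here.

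IL6, the founding gp130 cytokine, gave 2 counts in WT untreated and 18 in WT transduced, with 12 and 0 in KO, 4 and 0 in L101P, 12 and 39 in E292V, and 10 and 14 in E690K. The highest level, 0.411 CPM in the transduced E292V library, had a 95% interval of 0.265 to 0.639 CPM. CCL20 had 0 counts in 5 libraries, and 24 counts, its highest value, in the library labelled KO transduced (0.295 CPM, 0.169 to 0.517). For a count of 0 there, 3 counts, 0.0310 to 0.0400 CPM in these libraries, served as a nominal limit. The upper end of the 95% interval, which uses the count divided by 2, was higher, at 0.0794 to 0.102 CPM. No contrast of IL6 or CCL20 passed (edgeR adjusted p 0.298 to 0.997), and at these counts differences of several fold were not detectable.

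The vector effect was tested over the 5 lines, each line being its own control. It passed for 0 of the 10 genes, as it did for 0% of all genes tested. These contrasts follow the labels, which EGFP goes against in the KO pair and bears out by a log2 difference of only 0.14 in E690K. CCL2 and CXCL5 had unadjusted p under 0.05 in edgeR (0.0351 and 0.0417, adjusted p 0.663 and 0.700), where 6.88% of all genes did. Under the DESeq2 Wald test 0 of the 10 passed, where 0.629% of all genes did. CCL2 had a log2 fold change of 0.31 (SE 0.13) and was higher after transduction in 4 of 5 lines, by 0.63 in WT, 0.08 in the pair labelled KO, 0.22 in L101P and 0.69 in E292V, with -0.21 in E690K. CXCL5 had 0.21 (SE 0.09), with 0.29, 0.07, 0.64, -0.07 and 0.04 in WT, KO, L101P, E292V and E690K. CXCL1 had -0.34 (SE 0.28, edgeR adjusted p 0.897), with -0.29, -1.33, 0.67, -0.63 and -0.22 in the same order. It was at -0.09 without the KO pair and at 0.18 with the KO labels exchanged (edgeR adjusted p 0.999 and 1.00). CXCL8 moved by 0.14, 0.49, -0.20, -0.47 and -0.02 in WT, KO, L101P, E292V and E690K, with a fitted value of 0.02 (SE 0.19, edgeR adjusted p 0.993). IL11 was at 0.00 (SE 0.13) over the lines, with 3 lines above and 2 below 0. LIF was at -0.05 (SE 0.04), with 4 of 5 lines below 0. Without the KO pair the values for CCL2 and CXCL5 were 0.37 and 0.25 (edgeR adjusted p 0.922 and 0.955), and with its labels exchanged 0.28 and 0.18 (1.00 for both).

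**Figure D4:**
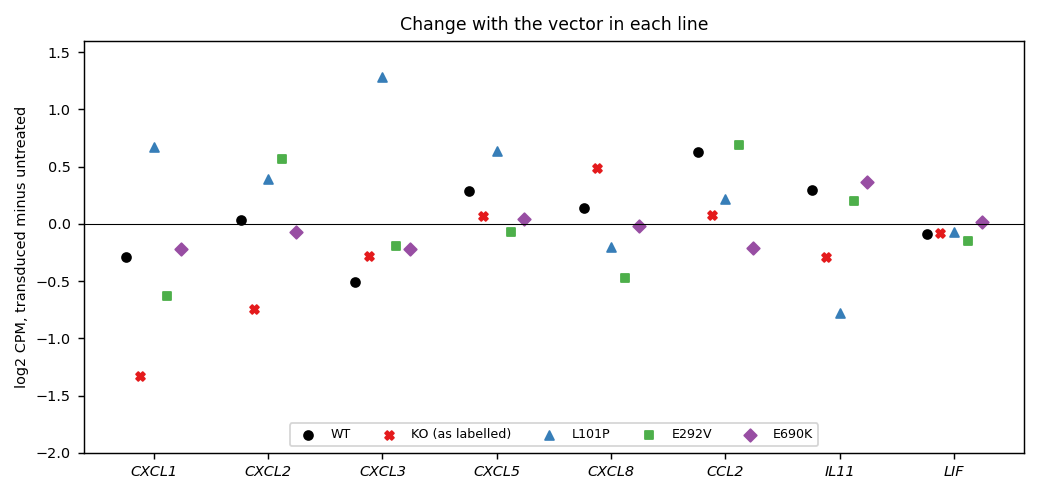
Transduced minus untreated log2 CPM for 8 genes, 1 symbol per line, the KO pair as labelled. The symbols lie on both sides of 0 for each of the 8 genes, and the L101P value of CXCL3, 1.28, stands apart from the 4 others.

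Of 10 receptor genes of these ligands, 4 passed the filter on low counts: IL6ST at 209 to 308 CPM, IL6R at 15.3 to 21.8, LIFR at 15.0 to 23.2 and IL11RA at 4.02 to 6.30 CPM. CXCR1, CCR2 and ACKR1 had 0 counts in the 10 libraries, and CXCR2, ACKR2 and CCR6 reached at most 8, 8 and 14 counts. No contrast with WT passed for the 4 (edgeR), where 1.05 to 5.38% of all genes did. IL6R, singled out after its values were seen, passed the test among the 5 lines (edgeR adjusted p 0.0410), but not on library totals alone, with the KO labels exchanged, or without the WT, KO, E292V or E690K pair.

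Of 33 other epithelial cytokines and chemokines, 19 were tested. The contrasts of KO, L101P, E292V and E690K with WT had 2, 3, 0 and 4 calls (edgeR). Over all genes, 1.80, 3.94, 1.05 and 5.38% were called in these contrasts. CLCF1, another gp130 cytokine, was at 28.5 and 28.8 CPM in WT and at 49.5 and 50.5 CPM in E690K. It rose in KO, in L101P and in E690K, with log2 fold changes of 0.52, 0.74 and 0.85 (SE 0.11 each, edgeR adjusted p 0.0407, 0.00534 and 0.00114). CSF1, the macrophage growth factor, was at 41.8 and 46.9 CPM in WT and 23.4 and 25.7 in E690K. It fell in the same 3 contrasts, by log2 fold changes of -0.64, -0.64 and -0.80 (SE 0.13 each, edgeR adjusted p 0.0307, 0.0190 and 0.00398). GDF15, a stress-induced cytokine, fell in L101P (-1.09, SE 0.14, edgeR adjusted p 0.00168) and E690K (-1.30, SE 0.14, 2.80e-04), from 125 and 83.2 CPM in WT to 54.2 and 39.9 in L101P and 40.9 and 38.9 in E690K. In KO GDF15 was at -0.57 (SE 0.135, edgeR adjusted p 0.0555). That contrast passed under the DESeq2 test, without the filter on low counts, without the L101P pair and on library totals alone. IL32 rose in E690K (0.66, SE 0.17, edgeR adjusted p 0.0476). The CSF1 and CLCF1 calls in KO were lost without the E690K pair (edgeR adjusted p 0.0733 and 0.0910), the CLCF1 call in KO also with the KO labels exchanged (0.0891), and the IL32 call on library totals alone (0.0624).

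All 20 genes of the NF-kB list were tested, and 0 passed against WT in KO, L101P or E292V (edgeR). Of all genes, 1.80, 3.94 and 1.05% passed there, so 0 of 20 is near that share. In E690K 3 rose and 1 fell, where 5.38% of all genes were called. RELB and NFKB2, subunits of the non-canonical NF-kB pathway, and BIRC3, an inhibitor of apoptosis, rose by log2 fold changes of 0.53, 0.44 and 0.45 (SE 0.10, 0.10 and 0.09, edgeR adjusted p 0.00691, 0.0282 and 0.0111). TNFAIP2 fell by 0.34 on the log2 scale (SE 0.08, edgeR adjusted p 0.0236). RELB was at 30.0 and 31.6 CPM in WT and at 40.2 and 45.8 CPM in E690K, where both libraries lay above the 8 others. The NFKB2 call was lost on library totals alone (edgeR adjusted p 0.0506), and the TNFAIP2 call without the KO pair (0.0669). The list's median was 0.10 in E690K and 0.08, 0.01 and 0.09 in KO, L101P and E292V. Of the 15 tested genes upstream of NF-kB, TLR1, a receptor for bacterial lipopeptides, fell in E690K (-1.44, SE 0.33, edgeR adjusted p 0.0251). No other passed in any of the 4 contrasts, where 1.05 to 5.38% of all genes did.

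Downstream of gp130, 15 genes were tested. Against WT, 0 passed in KO or E292V (1.80 and 1.05% of all genes), 3 in L101P (3.94%) and 4 in E690K (5.38%). SOCS3, the feedback inhibitor of gp130 signalling, was at 32.0 and 32.6 CPM in WT, 21.0 and 14.3 in L101P, 20.0 and 18.6 in E690K, 23.4 and 16.8 in KO, and 32.7 and 41.7 in E292V. All 6 libraries of KO, L101P and E690K lay below the 4 of WT and E292V. SOCS3 fell in L101P (log2 fold change -0.85, SE 0.17, edgeR adjusted p 0.0185) and E690K (-0.69, SE 0.17, 0.0360), and the calls were lost without the E690K pair (0.0549) and with the KO labels exchanged (0.0670), respectively. In KO SOCS3 was at -0.67 (SE 0.17, edgeR adjusted p 0.0762). That contrast passed under the DESeq2 test, without the filter on low counts, and without the L101P or the E292V pair. The transcription factor CEBPD fell in L101P (-0.52, SE 0.13, edgeR adjusted p 0.0392) and E690K (-0.67, SE 0.13, 0.00892), and its relative CEBPB in L101P (-0.39, SE 0.10, 0.0497). Both L101P calls were lost without the KO pair (edgeR adjusted p 0.0794 for CEBPD and 0.0723 for CEBPB). CEBPD was also lost without the E690K pair (0.0896) and CEBPB without the E292V pair (0.0685). With the KO labels exchanged both were lost (edgeR adjusted p 0.065 for CEBPD and 0.115 for CEBPB). CEBPB was lost with DESeq2 median-ratio factors too (0.0555 in edgeR). In E690K STAT5A rose (0.44, SE 0.12, edgeR adjusted p 0.0456). The call was lost without the KO pair (0.0833 in edgeR), without the E292V pair (0.0539), on library totals alone (0.0633) and with the KO labels exchanged (0.0917).

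Among 10 regulators of AU-rich messenger RNA, 2 passed in L101P and 1 in E690K (edgeR), against 3.94 and 5.38% of all genes. In KO and E292V 0 passed, against 1.80 and 1.05% of all genes. ZFP36L1 and ZFP36L2 encode proteins that bind AU-rich elements and hasten decay. ZFP36L2 was at 71.3 and 77.2 CPM in WT and 98.9 and 131 CPM in L101P (log2 fold change 0.67, SE 0.11, edgeR adjusted p 0.00735). ZFP36L1 rose in L101P (0.32, SE 0.08, edgeR adjusted p 0.0417) and E690K (0.47, SE 0.08, 0.00472), and leaving out the KO pair (0.0669) or the E690K pair (0.0726) ended the L101P call. With the KO labels exchanged, the ZFP36L1 calls were lost in both lines (edgeR adjusted p 0.227 and 0.0723). The L101P call was also lost on library totals alone (edgeR adjusted p 0.0702).

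**Figure D5:**
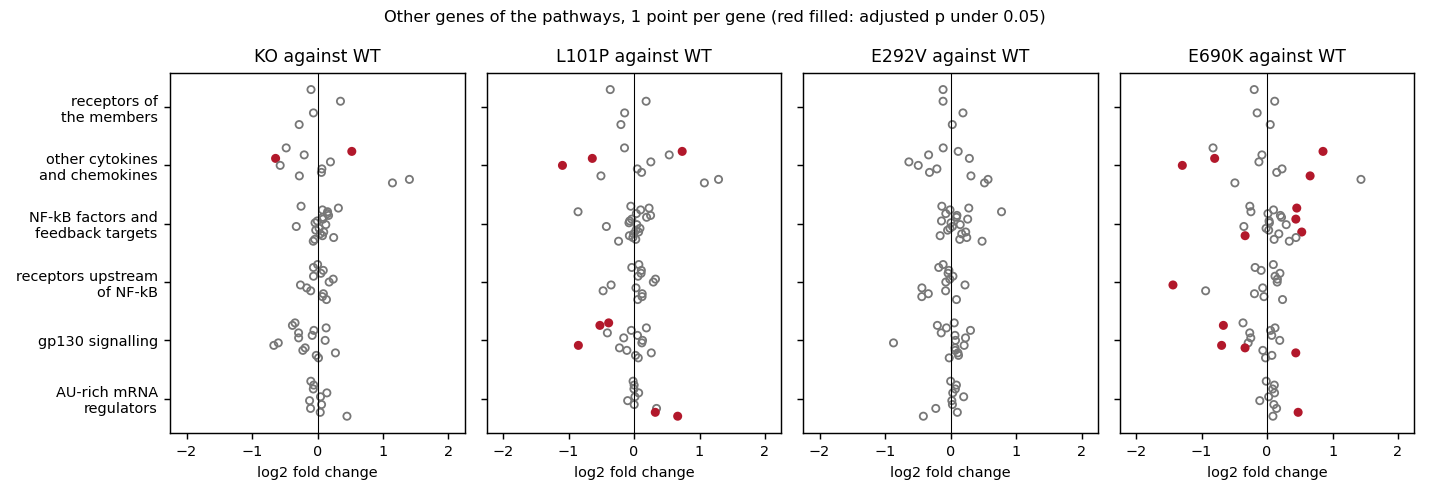
Log2 fold change against WT for 73 of the 83 tested genes of 6 pathway lists, those with at least 10 counts in every library; 1 point per gene, 1 panel per line, filled red where the edgeR adjusted p is under 0.05. No gene of the lists was called in E292V, where 1.05% of all genes were. Most calls lie in L101P and E690K, where 3.94 and 5.38% of all genes were called, against 1.80% in KO.

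Across the 10 libraries, which are 5 pairs and share their lines, CXCL1, CXCL2 and CXCL3 followed one another (Pearson r of log2 CPM 0.72 to 0.75), genes that also share sequence. CXCL8, with no 50-base word shared with another gene, had r of 0.57, 0.71 and 0.53 with CXCL1, CXCL2 and CXCL3. CXCL8 ran opposite to CCL2 and to IL11 (r = -0.75 for both). CCL2 ran with IL11 (r = 0.75), as did IL6 (r = 0.74), which had low counts. Among 11910 other genes with a mean log2 CPM of at least 1, the 5 most like CXCL8 were TNC, TMEM164, ATG16L1, LAMB3 and ITGA6 (r 0.968 to 0.978). TNC, a matrix glycoprotein, ranged from 3.92 to 33.4 CPM and LAMB3, a laminin chain, from 28.2 to 148 CPM, whereas ATG16L1, an autophagy factor, ranged only from 45.6 to 59.5 CPM. The 5 most like CCL2 were C2orf49, PAPD4, SF3A3, OSGIN2 and ERI1 (r 0.947 to 0.955). These correlations describe the pattern over these libraries and carry no test.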

How the data were processed

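The deposited file holds whole-number counts per gene, 1 column for each of the 10 libraries; no column was left unused. The submitters' processing notes name GRCh38, featureCounts, Subread, edgeR and limma without roles; the aligner, annotation and strand setting are not given in the sources used here. Of the count values from 1 to 10, 81.4% were even, the form of a table in which both mates of a pair are counted, so the 95% Wilson intervals use the count divided by 2. They cover counting error only, since reads carry no molecular identifiers.

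CPM are counts over the library total. One additive fit of line and vector (edgeR 4.0.16 in R 4.3.3, filterByExpr, TMM, glmQLFit, glmQLFTest, 4 residual degrees of freedom) was made on 17978 genes, with Benjamini-Hochberg adjustment over all of them and a threshold of 0.05. It was tested on simulated data. The SE is the log2 fold change over the square root of F, and log2 CPM of single libraries use a prior count of 2. Libraries were paired by cell line, as the labels give it. The tests set each coefficient against the departure from additivity among these libraries, which may be technical. In the edgeR fit each gene's spread is drawn towards a trend over all genes. Its p-values thus rest on more than the gene's own 4 residual degrees of freedom. DESeq2 1.42.0 served as an alternative, and the other settings tried are given below. The members and lists were chosen with earlier results of these data known. Named were all members, the 3 list genes per contrast with the largest change among those called, and the 5 genes most like CXCL8 and CCL2; IL6R, IL32, TNFAIP2, CCL5, NFKBIZ, TRAF1 and ICAM1 fall outside this rule and were named after their values were seen. The values of 1 called gene of the gp130 list are not reported here. Coordinates come from GENCODE release 29 and promoters from RefSeq.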

Additional observations from a re-analysis of the deposited data

Results flagged for a closer look

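CXCL3 in the L101P pair stood apart. Transduced minus untreated, it was at 1.28 in log2 CPM (68 and 273 counts), while the changes in the other 4 lines lay between -0.51 and -0.19. That left a gap below L101P that made up 0.82 of the range over the 5 lines, above the 0.71 that 5 values reach in about 1 of 20 sets, and 8 sets were examined. In the same pair CXCL1 changed by 0.67 and CXCL2, which shares sequence with CXCL3, by 0.39, while CXCL8 changed by -0.20. The L101P pair also held the lowest and the highest total counts, 59430095 and 96811421, and the part of depth in the result was not tested.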

How the results depend on the processing

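Counts of the 10 genes past the threshold moved by over 1.5 times as follows. Leaving out 1 line pair at a time gave 3 to 6 genes for the test among lines (5 with all pairs; 5.30 to 21.0% of all genes). Against WT it gave 1 to 2 for KO (0.827 to 6.34%) and for L101P (2.06 to 4.17%; 2 each), 0 to 2 for E292V (1; 0.321 to 3.89%) and 1 to 3 for E690K (2; 3.60 to 11.2%). Without a filter on low counts, E292V had 2 genes (2.73% of all genes) and the 6 pairs of edited lines 20 calls, against 13. Over all genes, 0.767 to 12.5% passed in these 6 pairs without the filter, and 0.139 to 13.8% with it. With the KO labels exchanged, E292V had 0 genes (0.584%) and E690K 1 (3.33%). The vector effect kept 0 of the 10 genes under every setting run, the fit with no replicate block included. Over all genes, 0 to 0.977% passed in these settings, the most without the filter on low counts. Some uncalled vector values of the 10 genes changed sign. With the KO labels exchanged these were CXCL1 at 0.18 (-0.34 as labelled), CXCL8 at -0.20 and IL6 at 1.36, and with no replicate block CXCL2 at -0.05 and IL6 at 0.60. Leaving out line pairs moved the vector values of CXCL2 from -0.08 to 0.25, CXCL3 from -0.29 to 0.17, CXCL8 from -0.11 to 0.12, CCL20 from -1.02 to 0.81 and IL6 from -0.84 to 0.79. The cause was not tested. The calls of CXCL8 in E690K and of IL11 in KO and L101P against WT passed under all settings run. Other settings were DESeq2 median-ratio factors, library totals alone, at least 10 counts in every library, the DESeq2 test and counts divided by 2. Among the list genes, calls against WT gained under other settings are given for SOCS3 and GDF15 in KO only. CCL20 gave no value without the KO pair, where it missed the filter on low counts. IL6 and CCL20 were limited by depth.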

Other observations

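CCL5, a chemokine for T cells and monocytes, was at 1.39 and 0.949 CPM in the untreated and transduced E292V libraries and at 0 to 0.123 CPM in the 8 others. It passed the filter on low counts through its E292V libraries, so no test is given. In the NF-kB list, 7 of 20 genes passed the edgeR test among the 5 lines, where 13.0% of all genes did. Of these, NFKBIZ, TRAF1 and ICAM1 (edgeR adjusted p 0.0420, 0.0123 and 0.0245) had no call against WT in any line. NFKBIZ was lost without the WT, KO, E292V or E690K pair and with the KO labels exchanged, and TRAF1 and ICAM1 without the E292V pair. These genes were singled out after their values were seen.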
